A study of Mus musculus with 18 samples.

Results

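The genes that write, keep and remove DNA methylation were followed in whole-genome bisulfite sequencing (WGBS) of mouse splenic cells: *Dnmt1*, *Dnmt3a*, *Dnmt3b*, *Dnmt3l*, *Uhrf1*, *Tet1*, *Tet2* and *Tet3*. These 8 of 21951 protein-coding genes were taken by name, and every listed region that overlapped a gene body, or the 5 kb to either side of it, was kept. That gave 209 of 411770 regions in CD11b+ cells, a myeloid fraction, and 259 of 553467 regions in CD4+ cells, a T cell fraction. The groups were Dnmt3a+/+ mice, also called wild type (WT), and Dnmt3aR878/+ mice, which are heterozygous for the amino acid change R878H in blood cells and are called mutant here. The mutant allele lies behind a floxed cassette and was switched on by Vav1-iCre, a Cre driven in the hematopoietic lineage, on a C57BL/6 background in sex- and age-matched young adults. Controls were described collectively as Dnmt3a+/+, a name that in the methods takes in Cre-positive mice with 2 normal alleles and Cre-negative mice that carry the floxed allele, and which of these were sequenced is not given in the sources used here. Cells were enriched on magnetic columns, with CD4+ cells taken after CD11b+ cells had been removed. Each group held 4 mice, and the labels list 6 entries for the 4 mutant CD11b+ mice.

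Each value below is the mean methylation of a region in a group, in percent of cytosines read as methylated, as the authors' mean over the mice of that group. Values of single mice and read coverage were not in the tables used here, so no error between mice, no interval and no test could be given, and every difference is described by its size alone. A loss is the WT mean minus the mutant mean, in percentage points. The tables do not name their columns, and every direction rests on reading the first group mean as WT, since mutant cells are described as the less methylated in the study. The count of sites in a region was a count of CpG cytosines, with each strand counted separately, so 10 cytosines can stand for as few as 5 CpG dinucleotides. A region is called past the threshold where it held more than 10 cytosines and its means differed by more than 20 points.

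*Dnmt3a* and *Dnmt3b* are the de novo methyltransferases, and *Dnmt3l* is a catalytically inactive partner that stimulates them. *Dnmt1* copies methylation onto the new strand after replication and is brought to hemimethylated sites by *Uhrf1*. The Tet enzymes oxidize methylcytosine and so open the way to its removal, and bisulfite does not tell methylcytosine from hydroxymethylcytosine. In blood cells, *DNMT3A* and *TET2* are the genes mutated most often in clonal hematopoiesis.

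The intervals below are those in which both cell types lost most methylation at *Tet3*, *Dnmt3a*, *Tet1* and *Uhrf1*, shown to give the CpG content behind the values. Each was read from mm10 along the strand of its gene, 5′ to 3′, with each CpG dinucleotide in capitals, and the intervals longer than 300 bases were cut to the 300 bases about their centre.
Tet3 chr6:83453844-83454143 (- strand): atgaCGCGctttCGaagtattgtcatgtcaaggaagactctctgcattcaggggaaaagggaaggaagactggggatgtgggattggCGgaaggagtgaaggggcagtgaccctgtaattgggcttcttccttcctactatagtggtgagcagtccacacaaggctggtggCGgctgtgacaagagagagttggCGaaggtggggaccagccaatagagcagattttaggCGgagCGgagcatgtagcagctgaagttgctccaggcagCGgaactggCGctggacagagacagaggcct
Tet3 chr6:83457671-83457970 (- strand): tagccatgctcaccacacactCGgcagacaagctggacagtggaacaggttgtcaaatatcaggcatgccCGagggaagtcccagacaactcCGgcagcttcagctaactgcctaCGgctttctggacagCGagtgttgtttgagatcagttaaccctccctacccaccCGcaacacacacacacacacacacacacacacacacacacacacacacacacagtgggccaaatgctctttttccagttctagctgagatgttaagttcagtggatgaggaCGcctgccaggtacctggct
Dnmt3a chr12:3871745-3871918 (+ strand): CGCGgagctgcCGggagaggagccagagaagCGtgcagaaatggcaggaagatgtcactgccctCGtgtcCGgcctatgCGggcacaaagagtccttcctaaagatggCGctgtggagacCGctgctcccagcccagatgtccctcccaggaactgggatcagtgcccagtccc
Tet1 chr10:62887564-62887704 (- strand): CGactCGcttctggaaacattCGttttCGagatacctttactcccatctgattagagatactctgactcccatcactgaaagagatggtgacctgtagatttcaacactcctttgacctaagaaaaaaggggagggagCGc
Uhrf1 chr17:56305281-56305580 (+ strand): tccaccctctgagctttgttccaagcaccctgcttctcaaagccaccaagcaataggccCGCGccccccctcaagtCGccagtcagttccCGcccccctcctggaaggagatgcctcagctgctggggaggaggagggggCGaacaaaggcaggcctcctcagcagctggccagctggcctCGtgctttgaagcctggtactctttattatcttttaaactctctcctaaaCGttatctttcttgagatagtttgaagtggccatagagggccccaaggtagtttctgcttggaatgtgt

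The *Tet3* intervals lie inside the gene near its outermost start and hold 10 and 7 CpGs in the 300 bases shown. The *Dnmt3a* interval holds 9 CpGs in 174 bases and the *Tet1* interval 5 in 141 bases, while the *Uhrf1* stretch has 7 CpGs in 300 bases.

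Most listed regions of the 8 genes were less methylated in mutant cells, as were most listed regions of the genome. Listed regions held from 5.87% (*Uhrf1*) to 19.3% (*Dnmt1*) of the CpG cytosines of each gene and its flanks in CD11b+ cells, and from 84 of 812 (*Dnmt3l*) to 658 of 2628 (*Tet1*) in CD4+ cells, and the rest of each gene was not analysed here. In CD11b+ cells 200 of 209 regions (95.7%) had a lower mean in the mutant, against 93.4% of all listed regions, and among those with more than 10 cytosines it was 86 of 87 (98.9%), against 95.7%. For CD4+ cells the same counts were 250 of 259 (96.5%), against 95.5%, and, with more than 10 cytosines, all but 3 regions (97.4%), against 97.3%. The direction at the listed regions of these genes was therefore that of the background.

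**Figure D1:**
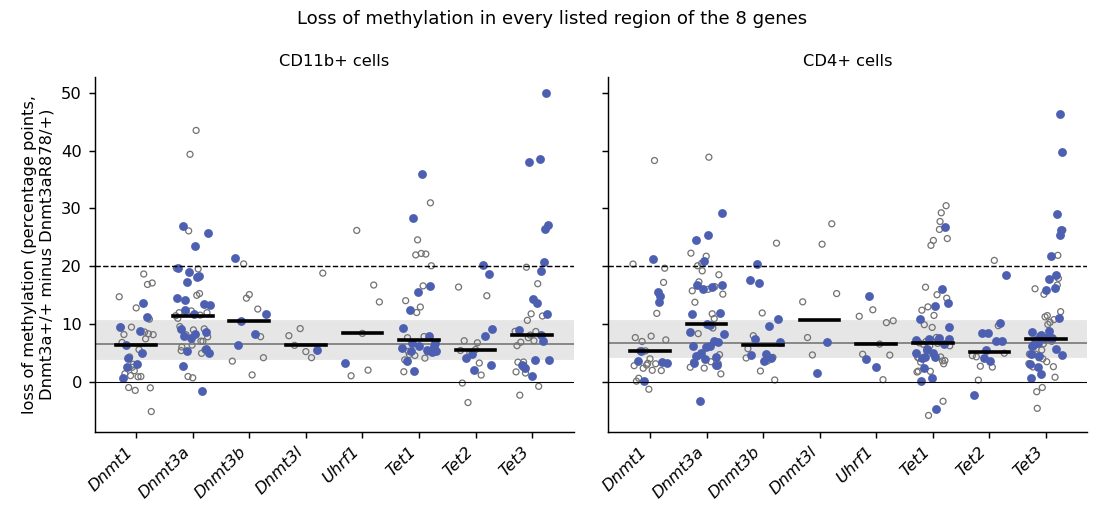
Loss of methylation in percentage points (WT mean minus mutant mean, vertical axis) for every listed region of the 8 genes, with 209 regions in CD11b+ cells on the left and 259 in CD4+ cells on the right. Filled points have more than 10 cytosines and open points exactly 10, black bars are the medians of each gene, the grey line and band are the median and quartiles of the whole table, and the dashed line marks 20 points. Most points lie within or near the band, and the highest are regions of *Tet3* (49.9 and 46.3 points).

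The median loss over the 8 genes was 8.12 points in CD11b+ cells and 7.18 points in CD4+ cells, against 6.55 and 6.85 points over all listed regions. Median methylation over these regions went from 90.4% in WT to 81.5% in mutant CD11b+ cells and from 91.8% to 83.6% in CD4+ cells. By gene, the median loss in CD11b+ cells ran from 5.48 points at *Tet2* to 11.5 points at *Dnmt3a*. In CD4+ cells it ran from 5.25 points at *Tet2* to 10.8 points at *Dnmt3l*, with 9.96 points at *Dnmt3a*. The *Dnmt3l* value rests on 8 regions, and 2 of these held more than 10 cytosines.

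Large losses were more frequent at these genes than over the whole table. In CD11b+ cells 13 of 87 regions (14.9%) lost more than 20 points, against 7.75% of all regions with more than 10 cytosines, and in CD4+ cells 13 regions did so (11.3%), against 6.89%. No member region gained as much: the count was 0 in either cell type, where 0.298% of all regions of CD11b+ cells and 0.00769% of those of CD4+ cells did. *Tet3* alone held 6 of the 13 in each cell type. Without *Tet3* the shares were 7 of 68 (10.3%) and 7 of 84 (8.33%). Of the member regions with exactly 10 cytosines, 11 of 122 (9.02%) lost more than 20 points in CD11b+ cells, against 6.47% of all such regions, and 20 of 144 (13.9%) in CD4+ cells, against 5.7%.

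By gene, 5 of 8 had at least 1 such loss in each cell type (62.5%), against 32.8% of all genes in CD11b+ cells and 36.4% in CD4+ cells. *Tet1*, *Dnmt3a*, *Dnmt3b* and *Tet3* did so in both, *Tet2* in CD11b+ cells and *Dnmt1* in CD4+ cells. The share of all genes with such a loss in both cell types was not computed. Several of the 8 genes are long and held more regions than most: *Dnmt3a* had 24 and 27 regions with more than 10 cytosines, *Tet1* 19 and 22, and *Tet3* 19 and 31, against a median of 4 and 5 per gene. *Uhrf1* and *Dnmt3l* held 1 each in the myeloid fraction, with 3 and 2 in the T cell fraction, and none was past the threshold.

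*Tet3*, which acts in the oocyte and zygote and is also expressed in blood cells, had the largest losses. Its share past the threshold was 6 of 19 regions (31.6%) in CD11b+ cells and 6 of 31 (19.4%) in CD4+ cells, and 1.45% and 1.96% of genes had as many as 6. Among its regions of exactly 10 cytosines, 0 in CD11b+ cells and 2 in CD4+ cells lost more than 20 points. Over all its listed regions the median loss was 8.1 and 7.5 points, against 6.55 and 6.85 points for all listed regions of the genome. The largest loss of all members lay in an intron, 5.16 kb inside the outermost start, at chr6:83453547-83454293. Methylation there was 68.4% in WT and 18.5% in mutant CD11b+ cells, a loss of 49.9 points over 17 cytosines. The CD4+ table listed chr6:83453695-83454293 with 74.0% and 27.8%, a loss of 46.3 points over 22 cytosines. The first of the sequences shown above comes from the stretch shared by both.

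Nearer to the start of *Tet3*, a region at chr6:83457562-83458128 fell from 51.4% to 24.3% in CD11b+ cells. The CD4+ table had chr6:83457659-83457982 with 76.5% and 36.8%. WT cells of the T cell fraction were thus the more methylated here, and the loss was 39.7 points, against 27.1 points in the myeloid fraction. Further into the gene, in an intron listed in both tables, CD11b+ cells fell from 65.3% to 38.9% at chr6:83451462-83451636 and CD4+ cells from 68.3% to 42.8% at chr6:83451502-83451994.

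**Figure D2:**
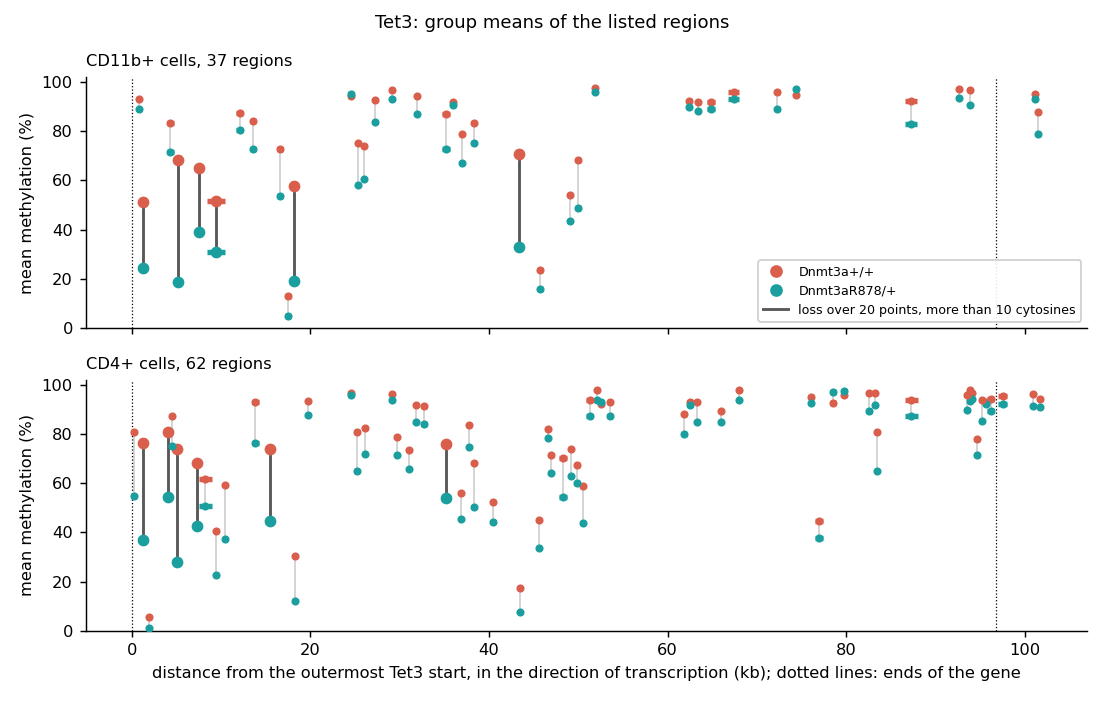
Mean methylation in percent of every listed *Tet3* region in WT (red) and mutant (teal) cells against the distance of its midpoint from the outermost start in kb, in CD11b+ cells above and CD4+ cells below. Dark lines join the means of the 6 regions in each cell type that lost more than 20 points over more than 10 cytosines, which lie between 1.24 and 43.4 kb from the start, and horizontal bars give the length of each region.

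The internal start of *Tet3* was the promoter with the largest loss in CD11b+ cells, though not in CD4+ cells. In the myeloid fraction a region 748 bp inside it, at chr6:83440685-83441168, fell from 57.7% to 19.2%, a loss of 38.5 points over 18 cytosines. CD4+ cells were already low here in WT: chr6:83440700-83440997 had 30.6% in WT and 12.0% in mutant cells, a loss of 18.5 points and the nearest region outside the threshold in that table. Across the start itself, at chr6:83441248-83441930, CD11b+ cells had 13.1% in WT and 4.94% in mutant cells from 12 cytosines, in a stretch that holds 46 CpG dinucleotides. Just upstream, at chr6:83442135-83442807, the means were 72.8% and 53.6%. The low level at the start and the higher levels on either side of it were thus lower still in mutant cells.

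Cell types differed most at 1 intronic stretch of *Tet3*. CD11b+ cells fell from 71.0% to 32.9% at chr6:83415547-83415914, whereas CD4+ cells, read at chr6:83415356-83415771, had 17.6% in WT and 7.60% in mutant cells. The other *Tet3* losses past the threshold were an intronic region of CD11b+ cells at chr6:83448694-83450690 (51.6% to 31.0%) and 3 regions of CD4+ cells. These were chr6:83423300-83424504 in an intron (75.8% to 53.9%), chr6:83443223-83443972 in an intron that also lies in *B230319C09Rik* (73.7% to 44.6%), and chr6:83454817-83455309 overlapping an exon (80.7% to 54.5%). In CD4+ cells the outermost promoter, at chr6:83458588-83459155, went from 81.0% to 54.7% over 10 cytosines, while in CD11b+ cells the neighbouring chr6:83458171-83458469 had 93.0% and 89.2%.

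*Dnmt3a*, the gene that carries the mutation, was less methylated in mutant cells along its own body. It had 3 of 24 regions past the threshold in CD11b+ cells (12.5%) and 4 of 27 in CD4+ cells (14.8%), and 3 places were past it in both. An intron at 19.9 kb from the start went from 86.8% to 59.8% in CD11b+ cells (chr12:3825729-3826099) and from 87.4% to 62.8% in CD4+ cells (chr12:3825713-3826551). Another intronic stretch fell from 68.2% to 44.8% in CD11b+ cells (chr12:3869748-3870846) and from 86.1% to 60.7% in CD4+ cells (chr12:3869747-3870316). Downstream of the gene, the means were 66.5% and 40.8% in CD11b+ cells (chr12:3917599-3917892) and 73.4% and 44.2% in CD4+ cells (chr12:3917577-3917992). Losses at these places were of like size in both cell types, from 23.5 to 29.2 points.

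The largest *Dnmt3a* loss was in a short intronic stretch of exactly 10 cytosines, whose sequence is given above. CD11b+ cells had 56.9% in WT and 13.4% in mutant cells at chr12:3871745-3871918, a loss of 43.5 points. CD4+ cells had 59.3% and 20.4% at chr12:3871554-3871998, a loss of 38.9 points. Both cell types were thus partly methylated in WT and mostly unmethylated in the mutant.

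**Figure D3:**
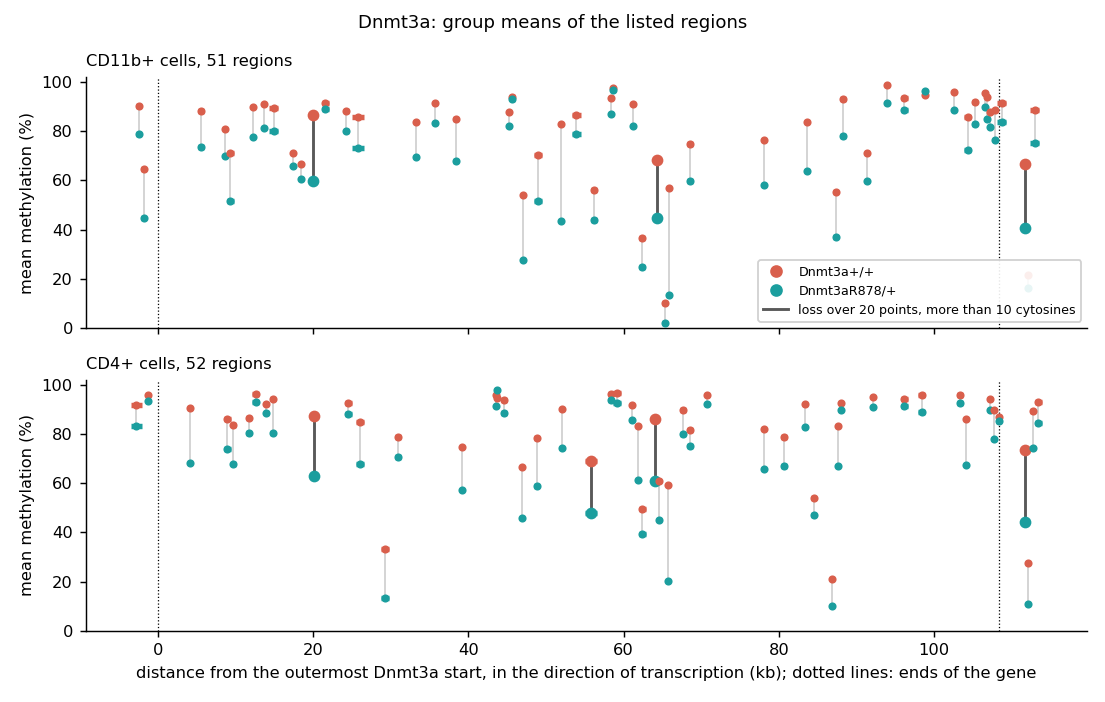
Mean methylation in percent of every listed *Dnmt3a* region in WT (red) and mutant (teal) cells against the distance of its midpoint from the outermost start in kb, in CD11b+ cells above and CD4+ cells below. Dark lines join the means of the 3 regions of CD11b+ cells and the 4 of CD4+ cells past the threshold, and horizontal bars give the length of each region.

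Around an internal *Dnmt3a* start, where the antisense gene *Dnmt3aos* lies, the promoter region chr12:3861000-3862596 of CD4+ cells fell from 68.9% to 48.0%, a loss of 20.8 points over 22 cytosines. In CD11b+ cells chr12:3861799-3862596 had 56.1% and 43.8% over 10 cytosines. Cell types were further apart upstream of that start. CD11b+ cells went from 83.0% to 43.7% over exactly 10 cytosines at chr12:3857826-3858097, and CD4+ cells from 90.3% to 74.2% over 12 cytosines at chr12:3857929-3858097. The nearest region outside the threshold in CD11b+ cells was chr12:3814892-3815743, with 71.3% and 51.6%, a loss of 19.7 points.

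The mutated codon was covered by 0 regions in either table. Position 878 is the codon CGC at chr12:3907652-3907654, which holds a CpG. Its nearest listed region was 670 bp away in CD11b+ cells (95.9% in WT, 88.8% in mutant cells) and 1299 bp away in CD4+ cells (95.9% and 92.7%). The base change itself therefore entered none of the values given for *Dnmt3a*.

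*Tet1*, the family member best known from embryonic stem cells, had 2 of 19 regions past the threshold in CD11b+ cells and 1 of 22 in CD4+ cells. Over all regions with more than 10 cytosines the shares were 7.75% and 6.89%, and 13.0% and 36.4% of genes had as many such regions as *Tet1*. The CD11b+ losses were both intronic, from 78.2% to 42.3% at chr10:62866120-62866735 and from 81.3% to 53.0% at chr10:62843776-62844546. CD4+ cells fell from 58.9% to 32.2% in an intron at chr10:62885563-62885900. At chr10:62866121-62866542 they had 84.7% and 57.0%, from exactly 10 cytosines.

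An internal *Tet1* promoter had like losses in both cell types. CD11b+ cells went from 70.4% to 39.4% at chr10:62887564-62887704, centred 122 bp upstream of the start, and CD4+ cells from 74.4% to 43.9% at chr10:62887560-62887704. Both regions had exactly 10 cytosines, and the sequence is shown above. Their losses were 31.0 and 30.5 points. Opposite directions were seen in a *Tet1* intron, where CD11b+ cells had 56.7% in WT and 44.1% in mutant cells (chr10:62840585-62841001) while CD4+ cells had 36.0% in WT and 41.7% in mutant cells (chr10:62840684-62840920), the largest gain of any member region in that table.

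**Figure D4:**
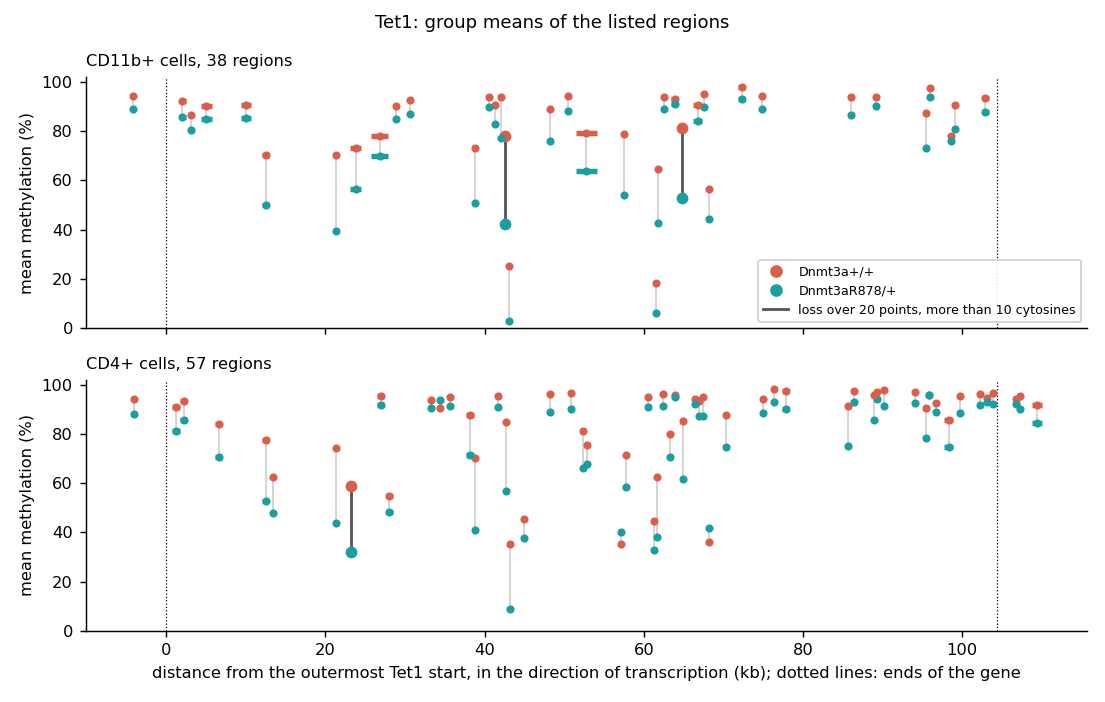
Mean methylation in percent of every listed *Tet1* region in WT (red) and mutant (teal) cells against the distance of its midpoint from the outermost start in kb, in CD11b+ cells above and CD4+ cells below. Dark lines join the means of the 2 regions of CD11b+ cells and the 1 of CD4+ cells past the threshold, and the paired drop at 21.4 kb is the internal promoter (70.4% to 39.4% and 74.4% to 43.9%).

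*Tet2*, a tumor suppressor of blood cells, had the smallest median loss in both cell types. Its 1 region past the threshold was just inside it: chr3:133530099-133531164, in an intron, fell from 51.4% to 31.2% in CD11b+ cells, a loss of 20.2 points. The CD4+ table had 0 of 10. Its largest loss there was from 85.9% to 64.9% over 10 cytosines at chr3:133514966-133515509, an interval at which CD11b+ cells had 91.6% and 86.0%. The region of CD11b+ cells with most cytosines, chr3:133533459-133534705 with 26, went from 88.2% to 69.5%. At the *Tet2* promoter CD4+ cells were nearly unmethylated, with 9.58% in WT and 2.46% in mutant cells at chr3:133545212-133545392.

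*Dnmt3b* had its largest CD11b+ loss near the 5′ end of the gene, in a region that meets a promoter through an internal start. The region chr2:153650575-153651605, with 25 cytosines and centred 1.64 kb inside the gene, fell from 34.2% to 12.8%. CD4+ cells had 36.9% and 19.3% at chr2:153650676-153651272. An intronic region at chr2:153658024-153658810 was just inside the threshold in CD4+ cells, with 70.4% in WT and a loss of 20.4 points. Near the end of the gene CD4+ cells went from 85.1% to 61.1% over 10 cytosines at chr2:153686844-153687462.

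*Dnmt1* had 0 of 10 regions past the threshold in CD11b+ cells and 1 of 9 in CD4+ cells. That region, in an intron at chr9:20945967-20946367, fell from 83.3% to 62.0%. Next to it, at chr9:20946615-20946765, CD4+ cells went from 84.7% to 46.4% over 10 cytosines, the largest *Dnmt1* loss, and CD11b+ cells had 75.8% and 57.2% at chr9:20946223-20946615. Near an internal *Dnmt1* start methylation was low in every group: 10.5% in WT and 2.15% in mutant CD11b+ cells (chr9:20951634-20951728), and 3.35% and 1.35% in CD4+ cells (chr9:20951580-20951668). Just upstream of the outermost start CD11b+ cells were higher in the mutant, with 85.4% and 90.5% at chr9:20960694-20960926, the largest gain of any member region in that table. CD4+ cells had 93.4% in WT and 89.8% in mutant cells at chr9:20960871-20961088. Further upstream, in regions that also lie in *S1pr2*, CD11b+ cells fell from 87.8% to 70.6% (chr9:20962448-20962845) and from 89.4% to 81.2% (chr9:20964308-20964880).

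*Uhrf1* and *Dnmt3l* had no region past the threshold, with few listed. At the *Uhrf1* promoter CD11b+ cells went from 66.4% to 40.2% at chr17:56305267-56305595, from exactly 10 cytosines. The CD4+ region over the same place was longer, chr17:56304990-56306168 with 29 cytosines, and went from 60.8% to 46.0%. Downstream of *Dnmt3l* the means were 83.2% and 64.4% in CD11b+ cells (chr10:78066811-78067642) and 77.7% and 50.3% in CD4+ cells (chr10:78067092-78067602). The CD4+ region at the *Dnmt3l* promoter, chr10:78042617-78042944, also lies in *Aire* and had 90.8% and 83.1%.

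Within 1 kb of a transcription start, 20 regions of CD11b+ cells had a median of 79.1% in WT and 63.8% in mutant cells, and 22 of CD4+ cells had 76.6% and 51.5%. Each of these medians was taken separately, so the gap between WT and mutant medians is not the loss of a typical region, least of all in CD4+ cells. The median loss at promoters was 9.14 and 7.15 points. In gene bodies it was 7.86 and 7.12 points, with introns at 8.65 and 7.94 points and exons at 5.98 and 4.71 points. With the outermost start of each gene as its only promoter, the CD11b+ median was 1.42 points and the CD4+ median 7.13 points. This CD11b+ median comes from few and scattered regions, at *Dnmt1* (losses of -5.08 and -0.975 points) and *Tet3* (3.81 and 27.1 points). The promoter value of CD11b+ cells thus rests mostly on regions at internal starts.

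Listed regions met few of the promoter windows that RefSeq gives for these genes (GRCm38.p6). All 8 genes matched, with 15 windows of 300 bases, and regions overlapped 1 window of *Tet3* in CD11b+ cells and 1 of *Tet1* in both. The *Tet1* regions met only the upstream edge of their window, chr10:62887275-62887574, since they begin at 62887564 in CD11b+ and 62887560 in CD4+ cells. Methylation in the rest of that window is not known here. The *Tet3* and *Tet1* windows hold 22 and 17 CpG dinucleotides, numbers that 23.1% and 31.4% of all 32851 windows reach. The windows richest in CpG, those of *Tet2* with 57 (reached by 0.152% of windows) and *Dnmt3a* with 46 and 47, were met by none, so nothing is known here of methylation in them.

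Regions with large losses had lower WT levels than the others. In CD11b+ cells the regions past the threshold had a WT median of 66.5%, against 89.2% for the other regions with more than 10 cytosines, and in CD4+ cells 74.0% against 92.2%. Since the loss also varied with the WT level over all listed regions, losses were compared within bands of WT methylation. Between 80% and 90% in WT, the 46 and 45 member regions lost a median of 11.6 points in CD11b+ and 15.2 points in CD4+ cells, against 7.43 and 8.20 points for all regions in that band. Without *Tet3* these medians were 11.9 and 15.6 points. Between 50% and 80% the members lost 18.5 and 15.9 points, against 13.4 and 13.1 points. Between 20% and 50% the order was the other way, with 11.8 and 11.5 points over 5 and 14 member regions, against 13.5 and 12.3 points. Without *Tet3* the CD11b+ median there was 16.6 points over 4 regions, above that of all regions. The CD4+ median without it was 11.25 points over 10 regions. Below 20% the 4 and 5 member regions lost 8.30 and 5.78 points, against 1.80 and 2.75 points. Above 90% the medians were 5.13 and 4.40 points, against 4.85 and 5.18 points. Members thus had the larger median between 50% and 90% and, from few regions, below 20% in both cell types. Above 90% the order differed between the cell types.

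**Figure D5:**
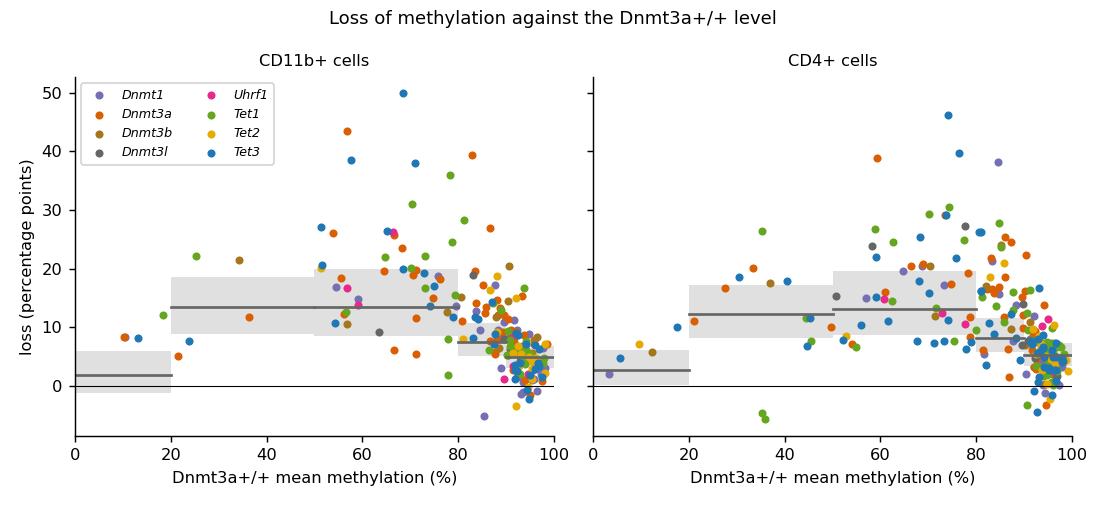
Loss of methylation in percentage points against the WT mean in percent for the 209 regions of CD11b+ cells (left) and the 259 of CD4+ cells (right), colored by gene. Grey lines and boxes are the median and quartiles of all listed regions in each band of WT methylation, and member regions of 80% to 90% have medians of 11.6 and 15.2 points against 7.43 and 8.20 points.

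CpG density was somewhat higher in the regions past the threshold, with a median of 2.17 CpGs in 100 bp against 1.38 in CD11b+ cells and 1.75 against 1.62 in CD4+ cells. Repeat-masked sequence made up a median of 15.0% against 18.5%, and 11.4% against 17.1%. The part of these features in the losses was not tested.

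The cell types were set side by side at 121 pairs of regions, one from each table, that shared at least 50% of the shorter region. The tables were made separately, so a long region of one could meet several regions of the other and enter several pairs. Some means are therefore counted repeatedly in the shares that follow. Both cell types were lower in the mutant in 96.7% of the 121 pairs, against 93.9% of all 202745 pairs, and 4 pairs went in opposite directions. WT CD4+ cells were the more methylated in 82 pairs (67.8%), against 61.5% of all, and at *Dnmt3a* in 29 of 33. The CD11b+ loss was the larger in 71 pairs (58.7%), against 47.4%. Losses of a pair differed by a median of 3.53 points, and 6 pairs, 3 at *Dnmt3a* and 3 at *Tet3*, were past the threshold in both cell types (4.96%), against 3.02% of all pairs.

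Markers of the sorted cells were read in WT within 1 kb of their starts. Myeloid markers were less methylated in CD11b+ cells in 6 of 6 genes listed in both tables, with medians over these of 46.6% in CD11b+ and 69.5% in CD4+ cells. T cell markers were the lower in CD4+ cells in 3 of 3, with medians of 54.7% in CD11b+ and 30.4% in CD4+ cells, though at *Tcf7* the levels were 15.3% and 15.1%. The direction at these markers was that of the tables' cell types, and *Cd4* itself had no listed region in the CD4+ table. B cell markers were the lower in CD11b+ cells in 3 of 3, with medians of 31.6% against 62.4%. The part of other cell types in the values was not tested.

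The wider methylation machinery was read in the same way from 38 related genes. Regions past the threshold made up 29 of 158 (18.4%) in CD11b+ cells, against the 7.75% given above, and 23 of 233 (9.87%) in CD4+ cells, against 6.89%. They lay in 17 of 36 genes (47.2%), against 32.8% of all genes, and in 12 of 38 genes (31.6%), against 36.4%, so the CD4+ share of genes was below that of all genes. *Zbtb38* alone held 9 of the 29 regions and 7 of the 23, and *Gadd45g* held 4 and 3. Of their own regions with more than 10 cytosines, these were 9 of 21 and 7 of 29 at *Zbtb38*, and 4 of 4 and 3 of 5 at *Gadd45g*. Both shares of regions thus lean on these genes, and the shares without them were not computed. By group, readers of methylated DNA had 12 of 53 and 14 of 81, removal and repair genes 8 of 31 and 5 of 44, maintenance and targeting genes 7 of 51 and 2 of 74, and genes of methyl donor and cofactor metabolism 2 of 23 and 2 of 34. The 1 gain was at *Setd2*, a histone methyltransferase, in CD11b+ cells, and this gene was chosen after its values were seen.

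Of these genes, 8 had a region past the threshold in both cell types. The share of all genes with such a region in both was not computed, so this count has no background beside it. *Gadd45g*, one of a family of stress proteins linked to demethylation, lost most, from 73.9% to 28.2% in CD11b+ cells and from 72.6% to 32.3% in CD4+ cells. *Zbtb38*, a zinc finger protein that binds methylated DNA, fell from 79.3% to 40.2% and from 65.8% to 27.9%, and held 9 and 7 such regions. *Gadd45a* fell from 48.3% to 14.3% and from 78.7% to 44.9%, and *Gadd45b* from 71.5% to 39.9% and from 77.7% to 52.6%. The others were *Usp7*, a deubiquitinase that acts on *Dnmt1* and *Uhrf1* (69.7% to 47.0%, and 46.0% to 19.3%), the methyl-CpG binding proteins *Zbtb4* and *Zbtb33*, and *Mat2b*, a regulatory subunit of the enzyme that makes the methyl donor (68.6% to 46.1%, and 68.8% to 46.3%). The *Usp7* values come from regions that do not overlap, chr16:8766691-8768320 in CD11b+ cells and chr16:8766154-8766471 in CD4+ cells. Across the 8 genes, the largest losses in each cell type ran from 20.1 points at *Zbtb33* to 45.6 points at *Gadd45g*.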

How the data were processed

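WGBS was made from splenic CD11b+ and CD4+ cells of 4 Dnmt3a+/+ and 4 Dnmt3aR878/+ mice per cell type; the 6 entries of mutant CD11b+ cells carry 4 replicate numbers. Per the methods, BISCUIT was the aligner, mm10 the build and metilene the caller of regions that the authors used, and the labels name FastQC; their versions are not given in the sources used here. The 2 deposited tables have no header and give, per region, how many sites it has and a mean for either group (the authors' mean, in percent methylated). The deposited q-value, p-value and difference columns (the difference is a signed score in percentage points) hold the authors' own comparison and were not used. There were 0 columns of per-sample values, and coverage is unknown. The first mean was read as WT because the study describes the mutant as less methylated, and cell types came from the names of the tables.

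The build was checked on the sequence: 100% of region borders lay on CpG cytosines of mm10, and the number of sites never exceeded the CpG cytosines of both strands. Coordinates count from 1. Genes came from GENCODE release 21 for mouse, and promoters reached 1 kb to each side of any annotated start. A region at a promoter was any that overlapped it. The threshold, more than 10 sites and a difference above 20 points, follows the size criteria of the methods without the q-value. Named were the 8 genes with all regions past the threshold and a part of their promoter regions, not all of them. The region with the largest difference and that with most sites in each cell type were named where these added values. Related genes past the threshold in both cell types, at most 10, and genes overlapping described regions were named too. The 8 genes, the lists and the tests were chosen with earlier results of these data known. Alternatives were other differences (10 and 30 points), site minimums (20), extensions and promoter widths. Scripts, in Python 3.11.15 with numpy 2.4.6, pandas 2.3.3, pysam 0.24.0 and matplotlib 3.10.9, were tested on simulated data.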

Additional observations from a re-analysis of the deposited data

How the results depend on the processing

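No paired analysis was possible because the tables hold group means only, with no value for a single mouse, and for the same reason no mouse could be left out. The count of 13 regions past the threshold in CD11b+ cells was 36 at a difference over 10 points, 4 at over 30 points, 3 with more than 20 cytosines, and 24 over all listed regions. For CD4+ cells the count of 13 was 38, 2, 2 and 33 under the same settings. Of 2 settings chosen after seeing the data, a minimum of more than 10 CpG dinucleotides, in place of cytosines, gave 8 regions of the myeloid and 9 of the T cell fraction, the latter with 2 *Dnmt3a* regions of exactly 10 cytosines that the criterion on cytosines leaves out, and leaving out *Tet3* gave 7 in each. The median loss in CD11b+ cells, 8.40 points over regions with more than 10 cytosines, was 16.1 points with more than 20. Its promoter median of 9.14 points was 1.42 points with the outermost start of each gene alone, which left few regions, at *Dnmt1* and *Tet3*. The other alternatives, on the extension of the gene, the promoter width and the weighting by cytosines, kept their direction and stayed within 1.5 times the reported value. Coverage is unknown, so the precision of any single mean is unknown too.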

Other observations

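Regions of exactly 10 cytosines made up 122 of the 209 member regions in CD11b+ cells (58.4%) and 144 of 259 in CD4+ cells (55.6%), much as in the whole tables (58.2% and 55.3%), and the criterion of more than 10 leaves them out. Among them, 11 regions of CD11b+ cells and 20 of CD4+ cells lost more than 20 points (9.02% and 13.9%, against 6.47% and 5.7% of all such regions), with up to 43.5 and 38.9 points, both at *Dnmt3a*. *Tet1* held 6 of the 11 and 7 of the 20, against 2 and 1 *Tet1* regions past the threshold with more than 10 cytosines. *Dnmt3l*, which had none past the threshold, held 2 of the 20, and *Tet3* held 0 of the 11 and 2 of the 20. Of the 13 regions past the threshold, 8 in CD11b+ cells and 7 in CD4+ cells span more than 10 CpG dinucleotides in the mm10 sequence, and the fewest in either was 7.

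The 9 regions in each cell type with a higher mean in the mutant differed by little. The largest gain was 5.08 points in CD11b+ cells, at *Dnmt1*, and 5.75 points in CD4+ cells, at *Tet1*. WT means were above 90% in 8 of the 9 in CD11b+ cells and in 7 of the 9 in CD4+ cells.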
